A study of Mus musculus with 35 samples.

Results

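Livers of 5 mice given SP70 at 20 mg/kg were set against the livers of 5 vehicle controls, out of 35 livers in 7 groups of 5. The members are the 5 arrays whose titles name that dose and particle, and their measurements cover all annotated genes, of which 12678 passed the filter on low signals. SP70 is a silica particle preparation that was injected into a vein, and the vehicle of the controls was deionized water. The other groups received SP70 at 10 or 40 mg/kg, SP30 at 10 mg/kg, or SP300 at 10 or 200 mg/kg, and only the SP70 groups at 10 and 40 mg/kg are compared with the 20 mg/kg group here. All mice were of the BALB/c strain, were assigned to groups at random and were killed 6 h after injection; no age was found in the labels. RNA came from a piece of the left lateral lobe, so every value is an average over all cell types of that piece at a single time, and each array holds the RNA of 1 mouse. Treated below means SP70 at 20 mg/kg.

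Particles in the blood are cleared largely by Kupffer cells, the macrophages that sit in the walls of the liver sinusoids, and in part by the endothelium of the same vessels. Hepatocytes make most plasma proteins, which are folded in the endoplasmic reticulum (ER). When folding falls behind, the sensors Ern1, Atf6 and Eif2ak3 start the unfolded protein response, which raises ER chaperones and the machinery that returns misfolded proteins to the cytosol for degradation, and which also raises the transcription factors Atf4 and Ddit3. Inflammatory signals to hepatocytes raise the acute phase proteins and lower many enzymes of bile acid, drug and amino acid metabolism.

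Median MAS5 signals of these 10 arrays lay between 148.84 and 180.24, in arbitrary intensity units, and 165, the median of all values on the 35 arrays, was the filter level. Pearson correlations of log2 signal lay between 0.965 and 0.975 within the treated and control groups, and between 0.928 and 0.942 across them. Albumin (Alb), the main hepatocyte secretory product, had between 68603 and 79972 in treated mice and between 68202 and 81400 in controls, high in all 10 livers. The first principal component of these 10 arrays, with 47.5% of the variance, placed the treated mice between 33.5 and 39.2 and the controls between -42.3 and -32.5. Control mice spread more on the second component, between -22.5 and 32.1, than treated mice, between -8.96 and 8.39.

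Of the 12678 genes, 5020 (39.6%) passed the threshold in limma, an adjusted p under 0.05. In treated livers 2376 genes (18.7%) were higher and 2644 (20.9%) were lower. At least 2-fold differences among them numbered 625 higher genes (4.93%) and 418 lower genes (3.3%), and at least 4-fold ones 129 (1.02%) and 63 (0.497%). The 5 treated values lay wholly above the 5 control values for 1795 of the 12678 genes (14.2%) and wholly below for 1991 (15.7%), whether or not they passed the threshold. Higher genes made up 47.3% of the calls as reported. The balance depended on the scaling: centring each array on its median gave 1859 higher and 3270 lower genes (36.2% higher), quantile normalization 2245 and 3175 (41.4%), and scaling to the trimmed mean 2393 and 2893 (45.3%). The median log2 difference over all genes was -0.03 as reported and -0.12 after centring. With the mean of all probe sets standing for a gene the balance turned, to 2493 higher and 2307 lower genes (51.9% higher).

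**Figure D1:**
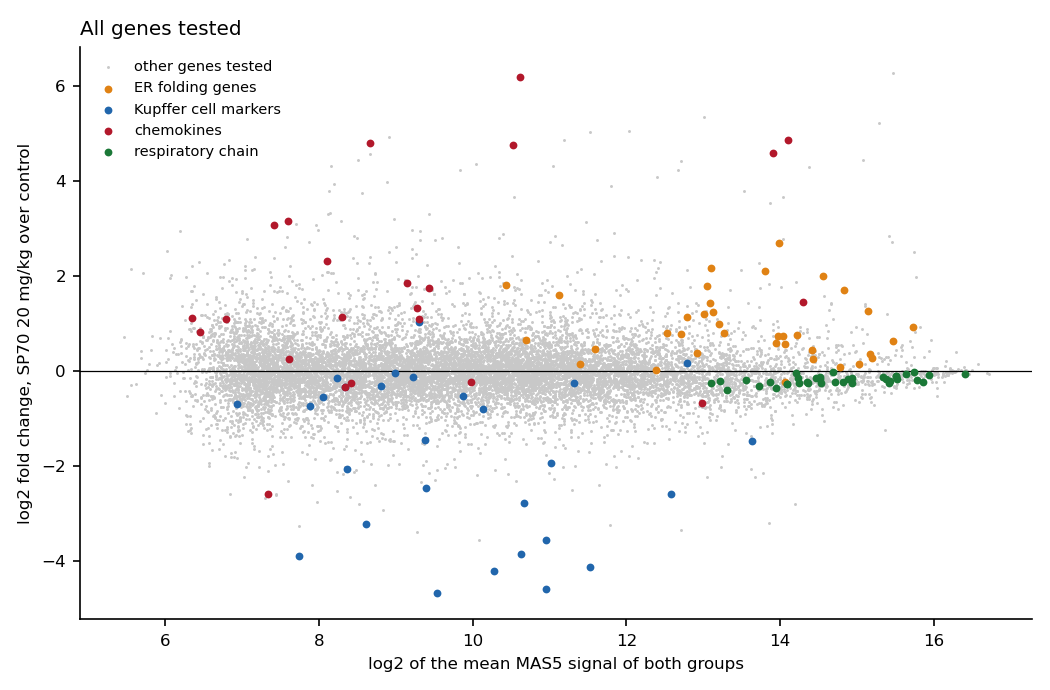
Log2 mean signal (arbitrary units) against the log2 difference, SP70 20 mg/kg minus control, for the 12678 genes, with ER folding genes, Kupffer cell markers, chemokines and respiratory chain subunits in colour. Most coloured ER genes lie above 0 and most Kupffer cell markers below it, while respiratory chain subunits sit just under 0 at high signal.

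Genes of ER protein folding and ER-associated degradation rose together. Of 36 such genes on the list, all of which passed the filter, 30 rose (83.3%) and 0 fell, against 18.7% and 20.9% of all genes. The median log2 difference was 0.77, against -0.03 over all genes. In 29 of the 36 every treated value lay above every control value, as in 14.2% of all genes. The count of higher genes was 29 to 31 under the other scalings, which called at most 1 gene lower. The 3 largest log2 differences were those of Creld2, Sdf2l1 and Syvn1.

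Creld2, an ER protein secreted under folding stress, had signals of 25098, 26556, 26357, 28428 and 32775 in treated mice, against 2861, 2695, 5320, 4579 and 7609 in controls. It was 6.48-fold higher, and the lowest treated mouse stood far above the highest control (log2 difference 2.69 ± 0.27, SE; adjusted p = 8.19e-10). Syvn1, the ubiquitin ligase of ER-associated degradation, had 20876, 23003, 20832, 24460 and 27084 in treated mice, against 4913, 5323, 5624, 4775 and 6288 in controls. All 5 treated values were far outside the control range, and the ratio was 4.32-fold (log2 2.11 ± 0.18; adjusted p = 2.65e-11). Derl3, a channel component of the same pathway, had 1744, 1830, 1952, 2024 and 3087 in treated mice, against 405, 383, 521, 679 and 1163 in controls. It was 3.6-fold higher (log2 1.83 ± 0.28; adjusted p = 2.44e-06), and the fifth mouse of each group was its highest.

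Dnajb9, a co-chaperone that acts on the sensor Ern1, rose with little spread in either group. Its signals were 39484, 39454, 36667, 38088 and 38729 in treated mice, against 9125, 9343, 10531, 8994 and 10196 in controls. The 4.00-fold difference (log2 2.00 ± 0.10; adjusted p = 1.84e-17) was many times the spread within either group. The Hspa5 co-factor Sdf2l1 was 4.53-fold higher (log2 2.18 ± 0.26; adjusted p = 3.56e-08), and the Hsp70-like ATPase Hspa13 was 3.46-fold higher (log2 1.79 ± 0.12; adjusted p = 8.61e-14). The sensor kinase Eif2ak3 (PERK) itself had 3170, 3502, 3219, 3358 and 3539 in treated mice, against 1110, 1116, 957, 1306 and 1031 in controls. That is a 3.05-fold difference without overlap (log2 1.60 ± 0.11; adjusted p = 2.25e-14).

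The abundant chaperones moved less on this scale. Hspa5 (BiP), the central ER chaperone, had 69203, 74718, 65186, 72079 and 75519 in treated mice, against 33533, 37035, 40999, 31324 and 45971 in controls, a 1.9-fold difference (adjusted p = 1.46e-08). Hsp90b1, which folds receptors and integrins, averaged 54867 ± 2442 in treated mice and 35664 ± 5554 in controls (SD, n = 5 each; adjusted p = 2.55e-06). Treated signals of both lay above 48037, the level of the brightest 0.5% of all values; the files used here carry no saturation flag, so ratios there are given as measured. Calr, a lectin chaperone, was 1.28-fold higher with overlapping groups (adjusted p = 0.00713) and lost its call after median centring. The COPII coat subunits Sec24d and Sec23b, which package folded proteins for export, rose 2.36-fold (adjusted p = 1.34e-10) and 2.31-fold (adjusted p = 7.42e-09).

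Upstream regulators were less uniform than their targets. The transcription factor Xbp1 averaged 35056 ± 1946 in treated mice and 31683 ± 2934 in controls (adjusted p = 0.109), and the sensor Atf6 averaged 2826 ± 266 in treated mice and 2545 ± 276 in controls (SD, n = 5 each; adjusted p = 0.21). The sensor Ern1 was not past the threshold either (adjusted p = 0.915). Xbp1 acts after its RNA is spliced, which these probe sets do not report. Bhlha15 (Mist1), a secretory cell transcription factor, had 428, 760, 538, 869 and 922 in treated mice, against 120, 18.4, 27.2, 14.2 and 70.3 in controls. Every control value lay under the filter level, so the difference is at least 4.09-fold (log2 3.74 ± 0.42; adjusted p = 7.91e-09).

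**Figure D2:**
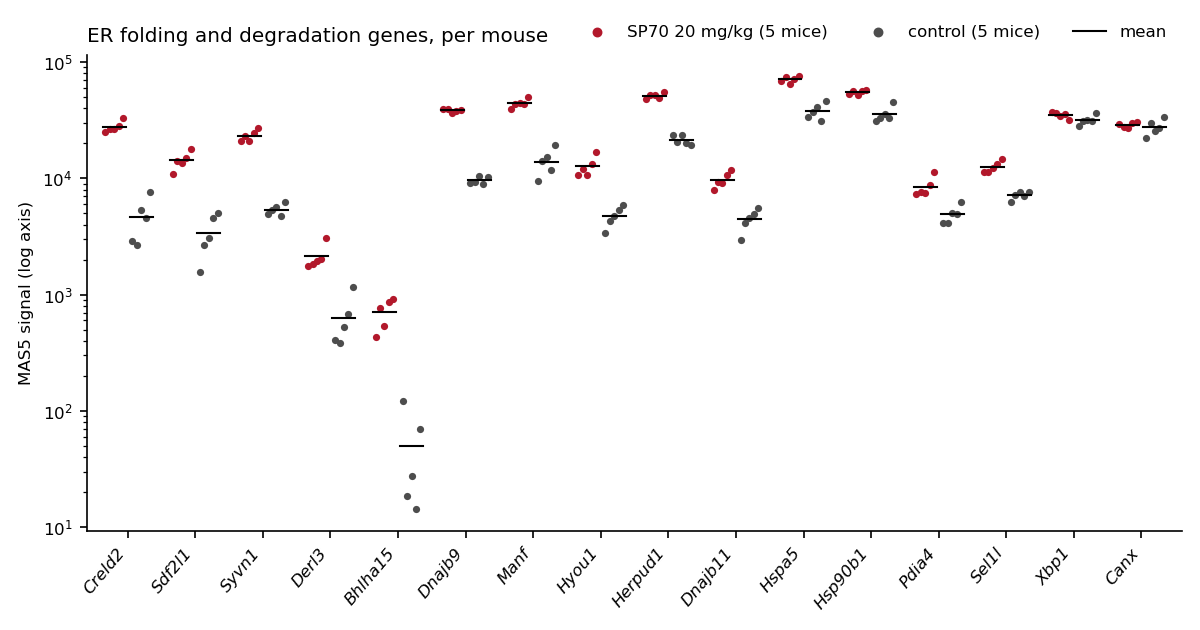
Signal (arbitrary units, log axis) of 16 ER protein folding genes in each mouse, SP70 20 mg/kg in red on the left and control in grey on the right of each pair; points are mice and bars are group means. Creld2, Syvn1 and Dnajb9 separate fully, and the treated values of Hspa5 lie between 65186 and 75519.

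Promoters of these genes were read for the ER stress element (CCAAT and CCACG with 9 bases of any kind between them) on both strands of the window between 250 bases before and 50 after the annotated start. RefSeq windows (build GRCm38.p6) were at hand for 30 of the 36 genes, and 10 of these (33.3%) held the element, against 37 of 27025 genes in all (0.137%). Of the 10 genes with it, 9 rose, and of the 20 without it, 16 rose; the median log2 differences were 0.78 and 0.70. The exception with the element was Canx, a lectin chaperone, which averaged 28861 ± 1540 in treated mice and 27579 ± 4368 in controls. The related element with ATTGG and CCACG parted by 1 base was found in 2 of the 30, Herpud1 and Dnajb11, and in 12 of the 27025 genes (0.0444%); 0 windows held both elements. Stretches around the element are shown for 7 of the 10, with large, small and no called differences, and for Herpud1 and Dnajb11, with the matched bases in capitals, each written 5′ to 3′ on the strand of its gene; the matches of Creld2, Derl3 and Calr read on the opposite strand. Hsp90b1, which holds 2 matches of which 1 is shown, Calr and Canx lie on the minus strand and the others on the plus strand, and the match of Dnajb11 lies after its start.
Creld2, chr15:88819500-88819558: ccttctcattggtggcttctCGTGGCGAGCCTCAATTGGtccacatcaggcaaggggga
Syvn1, chr19:6046512-6046570: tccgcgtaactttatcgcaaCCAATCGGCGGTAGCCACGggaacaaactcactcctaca
Derl3, chr10:75893222-75893280: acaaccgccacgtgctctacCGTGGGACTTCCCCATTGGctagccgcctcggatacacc
Hspa5, chr2:34772005-34772063: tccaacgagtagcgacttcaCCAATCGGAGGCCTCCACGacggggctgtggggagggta
Hsp90b1, chr10:86705618-86705676: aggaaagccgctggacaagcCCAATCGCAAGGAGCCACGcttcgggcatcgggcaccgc
Calr, chr8:84847055-84847113: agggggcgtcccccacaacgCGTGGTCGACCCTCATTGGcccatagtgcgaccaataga
Canx, chr11:50325780-50325838: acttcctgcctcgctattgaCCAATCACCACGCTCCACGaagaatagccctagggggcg
Herpud1, chr8:94386357-94386407: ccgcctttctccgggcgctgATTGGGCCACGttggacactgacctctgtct
Dnajb11, chr16:22857832-22857882: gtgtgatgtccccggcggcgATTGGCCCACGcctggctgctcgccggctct
The 2 genes with the shorter element rose too: Herpud1, which recruits misfolded proteins for degradation, was 2.4-fold higher (log2 1.26 ± 0.10; adjusted p = 4.06e-12), and the co-chaperone Dnajb11 was 2.23-fold higher (log2 1.15 ± 0.17; adjusted p = 1.11e-06).

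Targets of Atf4 and Ddit3 also moved, less uniformly. Of 37 listed genes 36 passed the filter, 20 rose (55.6%) and 4 fell (11.1%), with a median of 0.33. Over all genes, 18.7% rose and 20.9% fell. Atf4 had 8917, 9419, 14564, 11318 and 11129 in treated mice, against 5823, 5192, 6048, 5573 and 5317 in controls, and was 1.95-fold higher without overlap (adjusted p = 1.13e-05). Ddit3 (CHOP), which it induces, had 1691, 1849, 1595, 2404 and 2712 in treated mice, against 529, 617, 505, 617 and 779 in controls, a 3.33-fold difference (adjusted p = 3.42e-08). Mthfd2, the mitochondrial folate enzyme, showed the largest log2 difference of the list. Its signals were 1335, 1578, 1433, 1777 and 1561 in treated mice, against 210, 325, 149, 212 and 365 in controls, at least 6.26-fold (log2 2.61 ± 0.19; adjusted p = 5.2e-13). The glutathione-degrading enzyme Chac1 was 2.21-fold higher (adjusted p = 7.17e-05), and the hormone Fgf21 at least 3.52-fold (adjusted p = 4.36e-05).

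Calls at the edge of that list were less stable. Ppp1r15a, the phosphatase subunit that restores translation, and the pseudokinase Trib3 were among the 20 that rose, but their groups overlapped (adjusted p = 0.0256 and 0.0121) and the calls were lost under 6 and 1 of the alternatives. Shmt2, the serine hydroxymethyltransferase of mitochondria, fell to 3814 ± 315 in treated mice, against 6405 ± 831 in controls (SD, n = 5 each; adjusted p = 2.17e-06). The amino acid response element TTNCATCA occurred in 11 of 32 windows of the list, of which 6 belonged to genes that rose; of the 21 windows without it, 11 did, and 4.51% of all genes with a window held it. Examples are shown with the matched bases in capitals, for amino acid genes of which all 3 rose. Slc7a11 and Asns lie on the minus strand, Chac1 on the plus strand, and each stretch is written along its gene. The match of Asns reads on the opposite strand, and Slc7a11 holds 2 matches of which 1 is shown.
Slc7a11, chr3:50443633-50443680: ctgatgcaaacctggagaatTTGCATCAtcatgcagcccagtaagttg
Asns, chr6:7693205-7693252: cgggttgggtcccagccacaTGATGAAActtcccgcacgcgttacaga
Chac1, chr2:119351029-119351076: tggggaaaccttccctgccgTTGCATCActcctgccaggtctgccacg
The cystine transporter Slc7a11 had 233, 155, 263, 130 and 156 in treated mice, against 82.8, 42.6, 80, 57.4 and 13.2 in controls, around the filter level in treated mice and under it in controls. Asparagine synthetase, Asns, was at least 2.1-fold higher (adjusted p = 0.000168).

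Factors that assemble ribosomes in the nucleolus rose in part. All 34 listed genes passed the filter, and the median was 0.24. Of these, 16 rose (47.1%) and 2 fell (5.88%), against 18.7% and 20.9% of all genes. Nop58, a core protein of the small nucleolar particles that modify ribosomal RNA, had 5127, 6529, 6177, 6617 and 6781 in treated mice, against 2431, 1913, 1461, 1582 and 2162 in controls. The groups were wide apart, with a 3.31-fold difference (log2 1.72 ± 0.19; adjusted p = 6.5e-09). Tsr1, which acts on the small subunit, and Nolc1, a nucleolar chaperone, were both 2.2-fold higher (adjusted p = 4.39e-06 and 9.62e-06). Ncl and Fbl, major proteins of the nucleolus, were not past the threshold (adjusted p = 0.61 and 0.0671). Proteasome subunits showed 14 of 31 genes higher (45.2%) and 0 lower, all by less than 2-fold, a count that fell to 6 after median centring. Psma5, a subunit of the core ring, was the member with the smallest p, 1.62-fold higher (adjusted p = 4.49e-08).

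The cytosolic stress programmes showed no common direction. Of 26 heat shock proteins tested, 5 were higher (19.2%) and 3 lower (11.5%), against 18.7% and 20.9% of all genes, with a median of -0.03; after median centring 2 were higher and 6 lower. Hspa1b, the inducible cytosolic chaperone, had 11679, 8903, 8334, 8365 and 10431 in treated mice, against 3708, 2104, 4026, 8788 and 19312 in controls. The control range enclosed all treated values (adjusted p = 0.0945), and the fifth control mouse was also the highest control for Hspb1, at 4856, and Hsph1, at 7115. Hspa1b has a near-identical copy, Hspa1a, so its signal may include both. Bag3, a co-chaperone, was 2.63-fold higher (adjusted p = 2.09e-07). Of 28 targets of the antioxidant factor NRF2, 6 rose and 6 fell (21.4% each, near the shares over all genes), and 5 were higher and 9 lower after median centring. Srxn1 and Txnrd1, which reduce oxidized thiols, rose 1.91-fold (adjusted p = 5.66e-07) and 1.53-fold (adjusted p = 1.75e-06), while Ephx1, an epoxide hydrolase, fell by 0.74 on the log2 scale (adjusted p = 9.45e-06). Nqo1, a quinone reductase, averaged 417 ± 63.2 in treated mice and 444 ± 53 in controls (adjusted p = 0.725). Hypoxia-inducible factor targets and glycolysis genes counted 10 higher (30.3%, above the share over all genes) and 7 lower (21.2%) of 33, with a median of -0.07. After median centring 8 were higher and 8 lower. The centred counts of these lists stand against 1859 higher and 3270 lower genes of all 12678 under that scaling. Vegfa, the endothelial growth factor, had 2188, 2354, 2332, 1941 and 2234 in treated mice, against 3823, 4335, 3807, 4357 and 3000 in controls, 1.74-fold lower without overlap (adjusted p = 0.000184).

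**Figure D3:**
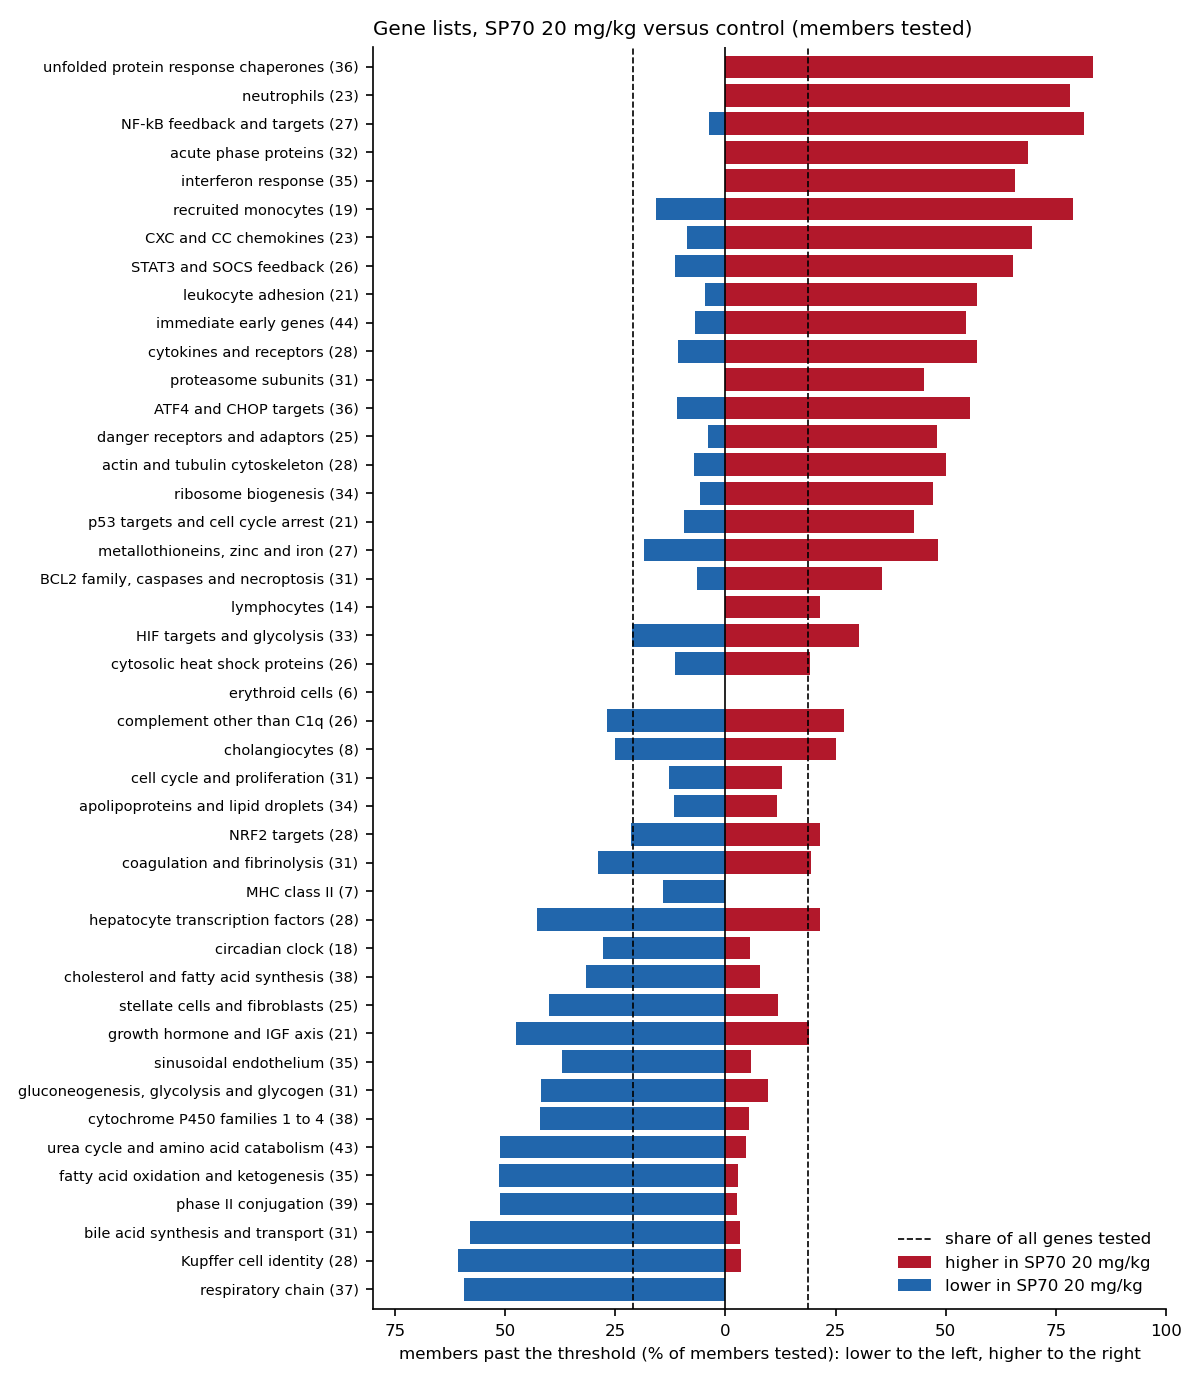
Share of tested members of each of 44 gene lists past the threshold in the SP70 20 mg/kg against control comparison, higher to the right and lower to the left, in percent; dashed lines mark the shares over all genes, 18.7% higher and 20.9% lower. ER folding genes, NF-kB targets and monocyte genes reach farthest to the right, and Kupffer cell genes and respiratory chain subunits farthest to the left.

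Markers of the cell types in the sample were read as whole lists. Bulk tissue cannot tell fewer cells of a type from less RNA per cell. Summed signals of 28 Kupffer cell markers ran from 25116 to 29077 in treated mice and from 59444 to 83966 in controls. Of the 28, 17 fell (60.7%) and 1 rose (3.57%), against 20.9% and 18.7% of all genes, with a median of -1.46. Csf1r, the receptor that macrophages need to survive, had 2071, 1762, 1550, 1625 and 1691 in treated mice, against 11915, 10689, 8610, 10829 and 10737 in controls. It was 6.06-fold lower, and its spread within each group was a small part of that (log2 -2.59 ± 0.13; adjusted p = 1.43e-17). Vsig4, the complement receptor of resident macrophages, was 18.1-fold lower, at 311 ± 89.5 in treated mice and 5590 ± 1300 in controls (SD, n = 5 each; adjusted p = 8.39e-09).

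Kupffer cell genes did not all fall. Timd4, the phosphatidylserine receptor, lay between 8.44 and 31.2 in treated mice and between 333 and 519 in controls, at least 2.45-fold lower (adjusted p = 8.5e-08). Slc40a1, the iron exporter, was 2.77-fold lower (adjusted p = 3.11e-08), and the efferocytosis receptor Mertk 1.74-fold lower (adjusted p = 3.76e-06). By contrast, the lysosomal protein Cd68 had 591, 507, 496, 326 and 577 in treated mice, against 662, 546, 370, 462 and 525 in controls. Its groups overlapped throughout (adjusted p = 0.883). Il18bp, the inhibitor of interleukin 18, rose 2.1-fold (adjusted p = 9.42e-05).

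Sinusoidal endothelial markers were lower in part: 13 of 35 fell (37.1%) and 2 rose (5.71%), against 20.9% and 18.7% of all genes. Their median was -0.27, with summed signals between 42300 and 53965 in treated mice and between 50517 and 72701 in controls. Ptprb, a phosphatase of endothelial junctions, had 1421, 1517, 1884, 2128 and 1829 in treated mice, against 3890, 4284, 3712, 4557 and 4592 in controls, 2.41-fold lower (adjusted p = 1.33e-08). Kdr, the main VEGF receptor, had 1066, 1048, 1069, 944 and 1136 in treated mice, against 1856, 2184, 1738, 2234 and 2165 in controls, 1.93-fold lower (adjusted p = 0.00047). Neither gene overlapped between groups. Lyve1, a hyaluronan receptor, went the other way, with 4678, 4351, 5757, 2793 and 4291 in treated mice, against 896, 909, 462, 944 and 2210 in controls (4.47-fold higher; adjusted p = 8.39e-05). Cdh5, the endothelial cadherin, rose 2.00-fold (adjusted p = 0.0013), and the scavenger receptors Stab1 and Stab2 were not past the threshold (adjusted p = 0.138 and 0.13).

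Stellate cell and fibroblast genes split in a similar way, with a median of -0.33. Of 25 tested, 10 were lower (40%) and 3 higher (12%), against 20.9% and 18.7% of all genes. Lrat, which stores vitamin A in quiescent stellate cells, had 320, 262, 626, 212 and 479 in treated mice, against 889, 1778, 1819, 1070 and 1177 in controls, 3.68-fold lower (adjusted p = 6.78e-07). Colec11, a collectin, was 3.56-fold lower (adjusted p = 1.46e-07). Tagln, an actin-binding protein of contractile cells, was 2.86-fold higher, at 947 ± 119 in treated mice and 347 ± 133 in controls (SD, n = 5 each; adjusted p = 2.71e-05).

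Markers of neutrophils and most of those of monocytes were higher. Neutrophil genes showed 18 of 23 tested higher (78.3%) and 0 lower, against 18.7% and 20.9% of all genes. Their median was 1.68, with summed signals between 85007 and 96961 in treated mice and between 24969 and 36210 in controls. Lrg1, among the 18, is also made by hepatocytes in the acute phase. Of 19 monocyte genes, 15 were higher (78.9%) and 3 lower (15.8%), and 14 and 3 after median centring, where Fn1 lost its call. Which cells carried the RNA of these genes was not tested. F13a1, the transglutaminase of monocytes, had 1224, 1281, 1367, 1081 and 1359 in treated mice, against 110, 151, 109, 110 and 103 in controls, at least 7.62-fold (adjusted p = 5.99e-18). Ccr2, the receptor for Ccl2, was at least 1.82-fold higher (adjusted p = 0.000379). Cx3cr1, a receptor of patrolling monocytes and resident macrophages, was at least 1.76-fold lower (adjusted p = 0.00412). Lymphocyte genes counted 3 of 14 higher (21.4%) and bile duct genes 2 higher and 2 lower of 8 (25% each), shares near those over all genes, and red cell genes 0 of 6 past the threshold in either direction by limma. Whether these cell types contribute to the counts of the inflammatory lists below was not tested.

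**Figure D4:**
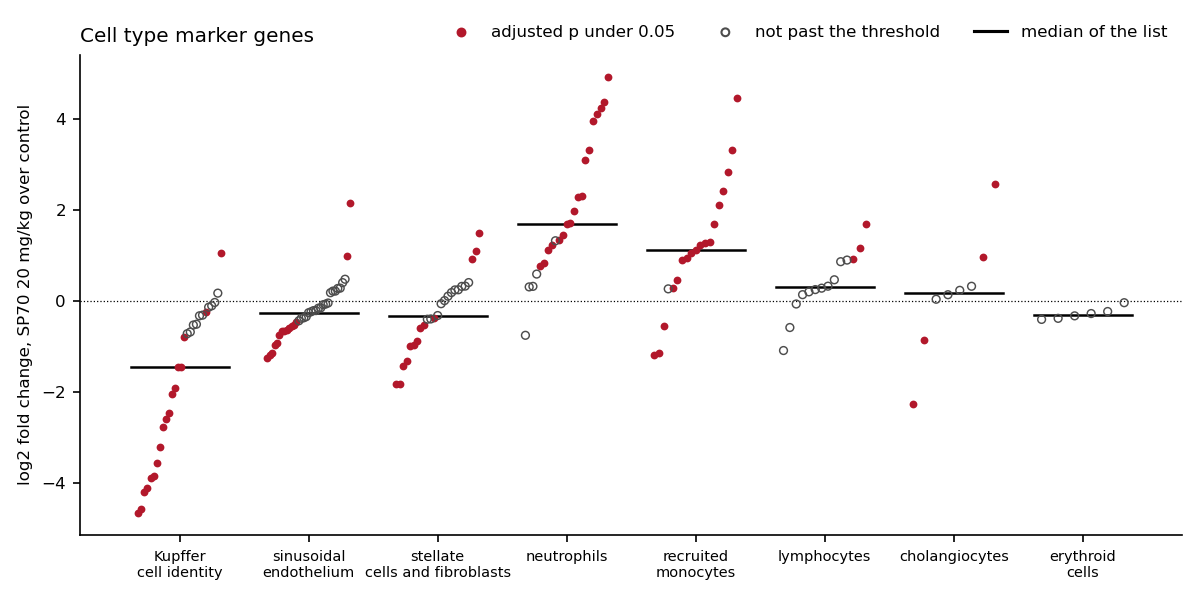
Log2 difference, SP70 20 mg/kg minus control, of each tested marker in 8 cell type lists; filled points passed an adjusted p of 0.05 and bars are list medians. Kupffer cell markers reach -4.67, neutrophil markers reach 4.92, and both endothelial and stellate lists hold genes on either side of 0.

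Sensors of danger signals differed widely in response. Of 25 tested, 12 rose (48%) and 1 fell (4%), against 18.7% and 20.9% of all genes. Tlr2, which binds lipoproteins and endogenous ligands, had 5421, 5135, 2707, 3442 and 3514 in treated mice, against 254, 205, 117, 157 and 220 in controls, at least 19.6-fold higher (log2 4.31 ± 0.20; adjusted p = 2.94e-18). Tlr4, the endotoxin receptor, had 269, 293, 288, 175 and 194 in treated mice, against 261, 186, 248, 238 and 228 in controls, with full overlap (adjusted p = 0.893). Nlrp3, the inflammasome sensor of particles, had 41.5, 250, 194, 98.7 and 181 in treated mice, against 48.9, 237, 222, 114 and 159 in controls, around the filter level in both (adjusted p = 0.921). The adaptor Myd88 was 1.97-fold higher (adjusted p = 7.21e-10), and Irak3, an inhibitor of the same pathway, at least 5.29-fold (adjusted p = 4.9e-11).

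Chemokines and NF-kB targets held some of the largest differences of the comparison. Of 23 chemokines tested, 16 rose (69.6%) and 2 fell (8.7%), against 18.7% and 20.9% of all genes, with a median of 1.34. Cxcl2, a neutrophil attractant, had 3308, 3687, 2032, 2892 and 2319 in treated mice, against 108, 104, 121, 62 and 72.5 in controls, at least 16.9-fold (adjusted p = 1.12e-12). Cxcl9, a T cell attractant induced by interferon gamma, had 26403, 34436, 24547, 35092 and 27252 in treated mice, against 1793, 1160, 994, 1338 and 909 in controls, 24.3-fold higher (adjusted p = 2.94e-18). The 2 lower ones were Ccl24, an eosinophil attractant with no treated value above 53.5 and control values of 359, 164, 149, 277 and 485, and Cxcl12, a homeostatic chemokine. Cxcl12 averaged 6298 ± 1383 in treated mice and 9971 ± 1919 in controls (SD, n = 5 each; adjusted p = 3.68e-05). NF-kB feedback genes and targets showed 22 of 27 higher (81.5%) and 1 lower (3.7%). The deubiquitinase Tnfaip3, which shuts the pathway off, had 3085, 3855, 1439, 3038 and 2341 in treated mice, against 160, 332, 106, 212 and 229 in controls, at least 12.3-fold (adjusted p = 2.41e-12).

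The kappa B element (GGG, 2 bases of any kind, TT, 1 base of any kind, CC) was searched on both strands of the same promoter windows, and 5.48% of all genes with a window hold it. Of the 23 chemokines tested, 15 had a window. The element occurred in 7 of these 15, and all 7 rose, against 2 of the 8 without it. Several of the 16 chemokines that rose had no window, so this contrast leaves them out, and a link of the element to the rise was not tested. In the NF-kB list the element occurred in 8 of 22 genes with a window, of which 6 rose, against 13 of the 14 without it. Stretches of genes whose values are given above, and of Cxcl1, are shown with the match in capitals, on the strand of each gene. Cxcl1 and Cxcl2 lie on the plus strand and Cxcl9 and Tnfaip3 on the minus strand, and the match of Tnfaip3 reads on the opposite strand. Cxcl1 and Cxcl2 hold 2 matches each, of which 1 is shown.
Cxcl1, chr5:90891154-90891203: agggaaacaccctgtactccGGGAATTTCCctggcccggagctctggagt
Cxcl2, chr5:90903782-90903831: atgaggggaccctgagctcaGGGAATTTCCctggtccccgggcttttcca
Cxcl9, chr5:92328180-92328229: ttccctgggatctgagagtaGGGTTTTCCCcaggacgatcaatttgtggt
Tnfaip3, chr10:19015393-19015442: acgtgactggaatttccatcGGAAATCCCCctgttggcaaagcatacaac
Cxcl1, a close relative of Cxcl2, had 39974, 43963, 17851, 38050 and 30482 in treated mice, against 946, 1050, 1240, 2050 and 632 in controls, 29.6-fold higher (adjusted p = 3.9e-17). The third treated mouse had the lowest treated signal for all 3 of these: Cxcl1, Cxcl2 and Tnfaip3.

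Cytokines and their receptors counted 16 of 28 higher (57.1%) and 3 lower (10.7%), against 18.7% and 20.9% of all genes. Il1rn, the antagonist of interleukin 1, had 5867, 4727, 4464, 3810 and 3786 in treated mice, against 195, 121, 187, 111 and 112 in controls, at least 25.6-fold higher (adjusted p = 3.88e-14). Il1b, the cytokine it opposes, was 3.49-fold higher, at 1238 ± 214 in treated mice and 353 ± 49.9 in controls (SD, n = 5 each; adjusted p = 7.67e-10). The signalling receptor Il1r1 was 5.09-fold higher (adjusted p = 1.31e-09). Tnf had 225, 281, 85.5, 248 and 271 in treated mice, against 31.2, 97.3, 26.3, 34.4 and 13.6 in controls, and its groups overlapped through the third treated mouse (adjusted p = 3.84e-06). On the path of interleukin 6, the receptor subunits Il6st and Il6ra were 3.44-fold (adjusted p = 2.39e-09) and 1.92-fold higher (adjusted p = 9.78e-06), and Stat3 was 2.7-fold higher (adjusted p = 1.33e-12). The inhibitor Socs3 had 4871, 7424, 4118, 8487 and 4999 in treated mice, against 435, 1287, 1029, 3079 and 777 in controls, 5.4-fold higher without overlap (adjusted p = 1.33e-07).

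Interferon response genes showed 23 of 35 higher (65.7%) and 0 lower, against 18.7% and 20.9% of all genes. The 3 largest log2 differences belonged to guanylate-binding proteins, which interferon gamma induces. Gbp2, a GTPase of that family, had 5982, 7142, 9915, 9829 and 8014 in treated mice, against 247, 292, 226, 165 and 228 in controls, at least 35.3-fold (log2 5.06 ± 0.22; adjusted p = 5.65e-19). Gbp6 of the same family was 11.7-fold higher (adjusted p = 4.33e-16), and the immunity-related GTPase Ifi47 was 6.89-fold higher (adjusted p = 1.09e-15). Mx1, a classical target of type I interferon, had 105, 155, 82.2, 219 and 168 in treated mice, against 176, 135, 115, 166 and 214 in controls. These values lay around the filter level in both groups (adjusted p = 0.605). Ifit3, another such target, was not past the threshold either (adjusted p = 0.101). Whether type I interferon contributed to the 23 higher genes was not tested. Of 7 MHC class II pathway genes, 1 fell (14.3%), the protease Ctss, by 1.25 on the log2 scale (adjusted p = 3.17e-08).

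Acute phase proteins rose in 22 of 32 cases (68.8%) and fell in 0, against 18.7% and 20.9% of all genes. Orm2, an orosomucoid, had 35366, 42237, 42290, 43731 and 38297 in treated mice, against 4674, 2161, 2223, 971 and 1586 in controls, 19.8-fold higher (adjusted p = 1.13e-16). Lbp, the plasma carrier of endotoxin, was 3.69-fold higher (adjusted p = 5.87e-16). The metalloreductase Steap4 averaged 76479 ± 3124 in treated mice and 10975 ± 2700 in controls, 7.17-fold (SD, n = 5 each; adjusted p = 1.01e-19). Haptoglobin, Hp, and fibrinogen alpha, Fga, known as acute phase proteins, were already above 48037 in every control and were not past the threshold (adjusted p = 0.937 and 0.805). Of 27 genes of metallothioneins, zinc and iron, 13 rose (48.1%) and 5 fell (18.5%). The importer Slc11a2 was 4.02-fold higher (adjusted p = 2.39e-13) and Hjv, the co-receptor that drives hepcidin, was 3.45-fold lower (adjusted p = 9.27e-12). Hepcidin itself, Hamp, was 1.77-fold higher (adjusted p = 9.42e-06).

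Of 44 immediate early genes, 24 rose (54.5%) and 3 fell (6.82%). Of 21 leukocyte adhesion genes, 12 rose (57.1%) and 1 fell (4.76%). Over all genes, 18.7% rose and 20.9% fell. Dusp5, a nuclear phosphatase of ERK, had 566, 169, 526, 502 and 519 in treated mice, against 82.7, 29.3, 24.1, 42.3 and 31 in controls, at least 2.55-fold (adjusted p = 3.62e-07). Myc fell, with 518, 575, 304, 432 and 548 in treated mice, against 783, 2708, 1779, 5303 and 725 in controls, with controls 2, 3 and 4 well above the rest (adjusted p = 0.000117). Icam1, to which leukocytes attach, had 6978, 6140, 4368, 6110 and 3971 in treated mice, against 804, 781, 604, 880 and 870 in controls, 6.9-fold higher (adjusted p = 1.56e-13). Selp and Sele, the selectins of activated endothelium, were 4.89-fold (adjusted p = 1.74e-09) and at least 2.49-fold higher (adjusted p = 8.2e-05). Vcam1 was not past the threshold (adjusted p = 0.108).

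Hepatocyte metabolism was lower over many genes by small amounts. Of 37 respiratory chain subunits tested, 22 fell (59.5%) and 0 rose, against 20.9% and 18.7% of all genes. Their median was -0.19 with none beyond 2-fold, and the other scalings called between 25 and 29 lower and 0 higher. Ndufb3, of complex I, had 9428, 8563, 9472, 7799 and 8767 in treated mice, against 10707, 10957, 11485, 11515 and 13076 in controls, 1.31-fold lower without overlap (adjusted p = 0.000194). Lower genes also outnumbered higher ones among 31 genes of bile acid synthesis and transport (18 against 1, 58.1% lower) and 39 conjugating enzymes (20 against 1, 51.3%). The same held for 35 genes of fatty acid oxidation (18 against 1, 51.4%) and 43 of urea cycle and amino acid breakdown (22 against 2, 51.2%). Among 38 cytochromes P450 it was 16 against 2 (42.1%). After median centring these lists held 18, 26, 25, 25 and 19 lower genes and 1 higher gene each. That scaling called 3270 of all 12678 genes lower and 1859 higher.

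Abcb11, the bile salt export pump, had 11223, 10695, 11368, 9622 and 10459 in treated mice, against 16862, 18460, 15438, 17777 and 16261 in controls, 1.59-fold lower (adjusted p = 1.13e-05). Klb, the co-receptor through which gut FGF restrains bile acid synthesis, was 2.5-fold lower (adjusted p = 8.04e-08). Cyp7a1, which starts bile acid synthesis, had 6599, 2525, 13788, 3974 and 1403 in treated mice, against 12915, 2641, 5447, 18056 and 4303 in controls, with overlapping groups and a wide spread in both (adjusted p = 0.395). Hal, which starts histidine breakdown, was 2.43-fold lower (adjusted p = 1.14e-07), and the glutathione transferase Gstm4 2.62-fold (adjusted p = 2.81e-05). Cyp2e1, Cyp3a11, Apoa1 and Cps1, among the most abundant liver transcripts, had signals above 48037 in all 10 mice, and none was past the threshold (adjusted p between 0.43 and 0.783).

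Genes of gluconeogenesis, glycolysis and glycogen were more often lower than higher, 13 (41.9%) against 3 (9.68%) of 31 tested. So were those of cholesterol and fatty acid synthesis, 12 (31.6%) against 3 (7.89%) of 38. Apolipoprotein and lipid droplet genes counted 4 higher and 4 lower of 34, and 3 and 8 after median centring. As reported that is 11.8% each, under the 18.7% and 20.9% of all genes. Irs1, the insulin receptor substrate, had 407, 472, 501, 630 and 554 in treated mice, against 2702, 2338, 2027, 2188 and 2309 in controls. It was 4.54-fold lower, with every treated mouse far below the lowest control (log2 -2.15 ± 0.16; adjusted p = 3.91e-13). G6pc, the last enzyme of glucose release, had 10074, 4788, 9668, 5289 and 5398 in treated mice, against 19692, 22305, 17020, 10177 and 15851 in controls, 2.46-fold lower with the groups just apart (adjusted p = 6.83e-05). Pck1, which commits carbon to gluconeogenesis, averaged 42536 ± 4827 in treated mice and 43500 ± 3449 in controls (adjusted p = 0.842). The lipogenic factor Mlxipl was 2.03-fold lower (adjusted p = 4.24e-08), while Dgat2, the last enzyme of triglyceride synthesis, was 1.9-fold higher (adjusted p = 1.98e-11) and the cholesterol exporter Abca1 2.15-fold higher (adjusted p = 5.51e-10).

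Transcription factors of hepatocytes split as well, with 12 of 28 lower (42.9%) and 6 higher (21.4%), against 20.9% and 18.7% of all genes. Foxa1, a pioneer factor, had 1013, 1081, 1221, 1488 and 1245 in treated mice, against 2288, 3665, 3386, 5436 and 5668 in controls, 3.23-fold lower (adjusted p = 2.72e-08). Nr1i3 (CAR), the drug-sensing receptor, was 2.85-fold lower (adjusted p = 1.2e-08), and the coactivator Ppargc1a 2.94-fold lower (adjusted p = 1.46e-05). Hnf4a, a master regulator of hepatocyte genes, was 1.47-fold higher, at 32855 ± 1529 in treated mice and 22353 ± 2031 in controls (SD, n = 5 each; adjusted p = 1.68e-05).

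Genes of the growth hormone axis were more often lower than higher, 10 (47.6%) against 4 (19%) of 21 tested, where 20.9% and 18.7% of all genes were. Hsd3b5, a male-biased steroid reductase, had 3728, 2966, 1630, 1451 and 3271 in treated mice, against 5540, 22807, 32807, 38694 and 34945 in controls. It was 9.19-fold lower (log2 -3.19 ± 0.44; adjusted p = 3.48e-07), and the first control mouse stood far below the other controls. Igfbp3, a carrier of insulin-like growth factors, was 5.05-fold lower (adjusted p = 5.61e-10), and the growth hormone receptor Ghr 1.64-fold lower (adjusted p = 1.32e-07). Socs2 and Cish, feedback inhibitors that growth hormone induces, were 4.05-fold (adjusted p = 0.000549) and 2.95-fold lower (adjusted p = 8.67e-06). Igf1 itself averaged 39012 ± 1048 in treated mice and 40754 ± 1850 in controls (adjusted p = 0.374).

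For clock genes and Cdkn1a the controls differed widely among themselves. Dbp, an output gene of the clock, had 654, 655, 493, 502 and 450 in treated mice, against 980, 868, 5204, 15276 and 785 in controls; its call (adjusted p = 0.028) was lost when the third or the fourth control mouse, or the fifth treated mouse, was left out. Cdkn1a, the cell cycle inhibitor p21, had 7924, 6003, 8398, 8824 and 8208 in treated mice, against 5108, 4014, 607, 222 and 5233 in controls (adjusted p = 0.00181), with controls 3 and 4 apart again. The labels used here hold no collection times, and time of day was not tested.

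The 20 mg/kg dose was also set against the neighbouring doses of the same particle. These comparisons share the 20 mg/kg mice with the one above. Against 10 mg/kg, 2147 genes (16.9%) passed the threshold, 631 (4.98%) higher and 1516 (12%) lower at 20 mg/kg, and the median over all genes was -0.05. Higher genes were 29.4% of these calls as reported, 20.2% after median centring (436 higher, 1726 lower), 42.7% after quantile normalization (947, 1269) and 45.9% after trimmed mean scaling (1015, 1194). Against 40 mg/kg, 1453 genes (11.5%) passed, 1100 (8.68%) higher and 353 (2.78%) lower, with a median of 0.09. That balance turned with the scaling: higher genes were 75.7% of calls as reported, 59.1% after median centring (502 higher, 347 lower), 44.1% after quantile normalization (469, 595) and 45.0% after trimmed mean scaling (441, 538), under which the median was -0.02. Without the third mouse at 20 mg/kg 960 genes passed, 663 of them higher, and without the third mouse at 40 mg/kg 912 passed, 618 of them higher.

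ER folding genes were higher at 20 than at 10 mg/kg, with 22 of 36 higher and 1 lower, the sensor Ern1. Between 15 and 27 were higher under the other scalings. Of all genes, 4.98% were higher and 12% lower than at 10 mg/kg as reported. Derl3 had 1744, 1830, 1952, 2024 and 3087 at 20 mg/kg, against 718, 1220, 316, 671 and 917 at 10 mg/kg, 2.96-fold higher without overlap (log2 1.55 ± 0.28; adjusted p = 0.000231). Bhlha15 was at least 3.21-fold higher at 20 than at 10 mg/kg (log2 2.01 ± 0.42; adjusted p = 0.00105), and Creld2 was 2.45-fold higher (log2 1.29 ± 0.27; adjusted p = 0.00115). Against 40 mg/kg, 6 of the 36 were higher and 1 lower as reported, where 8.68% and 2.78% of all genes were. Under each other scaling 2 were higher, with 1 to 3 lower. Sel1l, the partner of Syvn1, stood above both neighbours, with 11360, 11446, 12327, 13180 and 14581 at 20 mg/kg, against 8721, 10106, 7613, 6922 and 8890 at 10 mg/kg and 8824, 7971, 8445, 7281 and 9236 at 40 mg/kg. It was 1.49-fold above 10 mg/kg (adjusted p = 0.00104) and 1.5-fold above 40 mg/kg (adjusted p = 0.0013). Ero1a, the oxidase of disulphide formation and also a hypoxia target, was lower at 20 than at 40 mg/kg (log2 -1.81 ± 0.18; adjusted p = 2.57e-08).

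Kupffer cell markers separated 20 from 10 mg/kg: 17 of 28 were lower and 0 higher, where 12% and 4.98% of all genes were. Under each scaling 17 or 18 were lower. Csf1r at 20 mg/kg, between 1550 and 2071, lay below every value at 10 mg/kg, which were 4486, 5866, 5565, 4642 and 4203 (2.84-fold lower; adjusted p = 2.47e-09). Clec4f, a lectin of Kupffer cells, lay between 19.5 and 258 at 20 mg/kg, against 591, 1169, 1344, 507 and 1096 at 10 mg/kg, at least 4.19-fold lower (adjusted p = 0.000391). The 3 chains of complement C1q were all lower, with C1qc at least 5.00-fold lower at 20 than at 10 mg/kg (adjusted p = 2.97e-06). Against 40 mg/kg, 9 of the 28 were higher at 20 mg/kg, where 8.68% of all genes were, and 5 to 7 under the other scalings. The means of 7 of the 9 at 40 mg/kg lay under the filter level. Ccl24, made by resident macrophages, had 16.7, 47.3, 21.5, 53.5 and 36.5 at 20 mg/kg, under the filter level, and 220, 376, 266, 223 and 393 at 10 mg/kg.

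Endothelial markers separated 20 from 40 mg/kg instead: 17 of 35 were higher at 20 mg/kg and 1 lower, where 8.68% and 2.78% of all genes were. Their median was 0.70, and 16 were higher and 1 to 3 lower under each other scaling. Against 10 mg/kg, 2 of the 35 were lower and 0 higher, where 12% and 4.98% of all genes were. Kdr at 20 mg/kg, between 944 and 1136, lay above all 5 values at 40 mg/kg, which were 546, 418, 169, 351 and 429 (2.94-fold; adjusted p = 9.12e-06). Clec4g, a lectin of sinusoidal endothelium, had 4905, 4363, 4184, 3933 and 4452 at 20 mg/kg, against 1808, 1373, 467, 1727 and 1077 at 40 mg/kg, 3.74-fold higher (adjusted p = 7.77e-06). At 10 mg/kg it had 4088, 5078, 7509, 5006 and 7866, which overlapped with 20 mg/kg (adjusted p = 0.327). Oit3, secreted by the same cells, was 3.13-fold above 40 mg/kg (adjusted p = 9.71e-05).

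Hypoxia and glycolysis genes, and immediate early genes, were lower at 20 than at 40 mg/kg. Of 33 hypoxia-inducible factor targets and glycolysis genes, 23 were lower and 0 higher, where 2.78% and 8.68% of all genes were. Their median was -0.65, and 23 to 25 were lower under the other scalings. Adm, a vasodilator peptide, had 235, 249, 235, 220 and 175 at 20 mg/kg, against 2732, 1765, 2504, 5300 and 1518 at 40 mg/kg, 11.3-fold lower (log2 -3.42 ± 0.41; adjusted p = 7.73e-07). Its control values, 99.7, 260, 56.3, 134 and 208, overlapped with 20 mg/kg (adjusted p = 0.2). Vegfa and the glucose transporter Slc2a1 were 3.28-fold (adjusted p = 1.47e-08) and 2.98-fold lower (adjusted p = 5.96e-08) at 20 than at 40 mg/kg. Of 44 immediate early genes, 26 were lower and 2 higher, against the same 2.78% and 8.68% of all genes, with a median of -0.84. Ier3, a survival gene, had 1549, 2026, 1296, 2165 and 1540 at 20 mg/kg, against 15067, 9024, 15745, 17779 and 11887 at 40 mg/kg, 8.03-fold lower (adjusted p = 2.81e-06). The chemokine Cxcl2 followed the same order, 9.05-fold lower at 20 than at 40 mg/kg (adjusted p = 3.69e-07), and did not differ by the test from 10 mg/kg (adjusted p = 0.637).

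Several inflammatory genes were lower at 20 mg/kg than at both neighbours. Icam1 at 20 mg/kg, between 3971 and 6978, lay below 10 mg/kg, with 9934, 9638, 10237, 11144 and 9925 (1.89-fold; adjusted p = 0.00125), and below 40 mg/kg, with 11716, 10178, 12357, 18319 and 13949 (2.42-fold; adjusted p = 4.24e-05). Cxcl10, an interferon-induced chemokine, had 1294, 1015, 548, 1568 and 971 at 20 mg/kg, against 3360, 4809, 6072, 4593 and 2779 at 10 mg/kg and 4900, 2238, 4054, 9331 and 2755 at 40 mg/kg. Its group at 20 mg/kg did not overlap with either, and was 4.09-fold lower than at 10 mg/kg (adjusted p = 0.000231) and 4.01-fold lower than at 40 mg/kg (adjusted p = 0.000367). Interferon response genes counted 14 of 35 lower and 3 higher at 20 than at 10 mg/kg, where 12% and 4.98% of all genes were. Against 40 mg/kg 4 were lower and 2 higher, where 2.78% and 8.68% of all genes were. Their median log2 difference from 40 mg/kg was 0.12, near the 0.09 over all genes, so the list as a whole was not lower than at 40 mg/kg. NF-kB feedback genes and targets counted 10 of 27 lower and 1 higher at 20 than at 10 mg/kg, with a median of -0.39. Against 40 mg/kg 13 were lower and 1 higher, with a median of -0.43. Under the other scalings 8 to 10 were lower than at 10 mg/kg and 13 to 15 lower than at 40 mg/kg. Relb and Bcl3, NF-kB family members, were also below both doses, by 1.24 and 0.95 on the log2 scale against 10 mg/kg and by 1.00 and 0.95 against 40 mg/kg. Tlr2 was lower at 20 than at 10 mg/kg (1.95-fold; adjusted p = 0.00114) and did not pass the threshold against 40 mg/kg (adjusted p = 0.769).

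A2m and 2 metabolic genes show other orders across doses. A2m, a broad protease inhibitor, had 589, 946, 233, 1700 and 757 at 20 mg/kg, against 214, 151, 131, 122 and 176 at 10 mg/kg, at least 3.97-fold higher (adjusted p = 4.75e-05), and was lower than at 40 mg/kg (adjusted p = 0.0101). G6pc was 2.14-fold lower at 20 than at 10 mg/kg (adjusted p = 0.00217) and 2.31-fold higher than at 40 mg/kg (adjusted p = 0.00139). Hsd3b5 was 4.89-fold lower at 20 than at 10 mg/kg (adjusted p = 0.000431) and was not past the threshold against 40 mg/kg (adjusted p = 0.342).

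**Figure D5:**
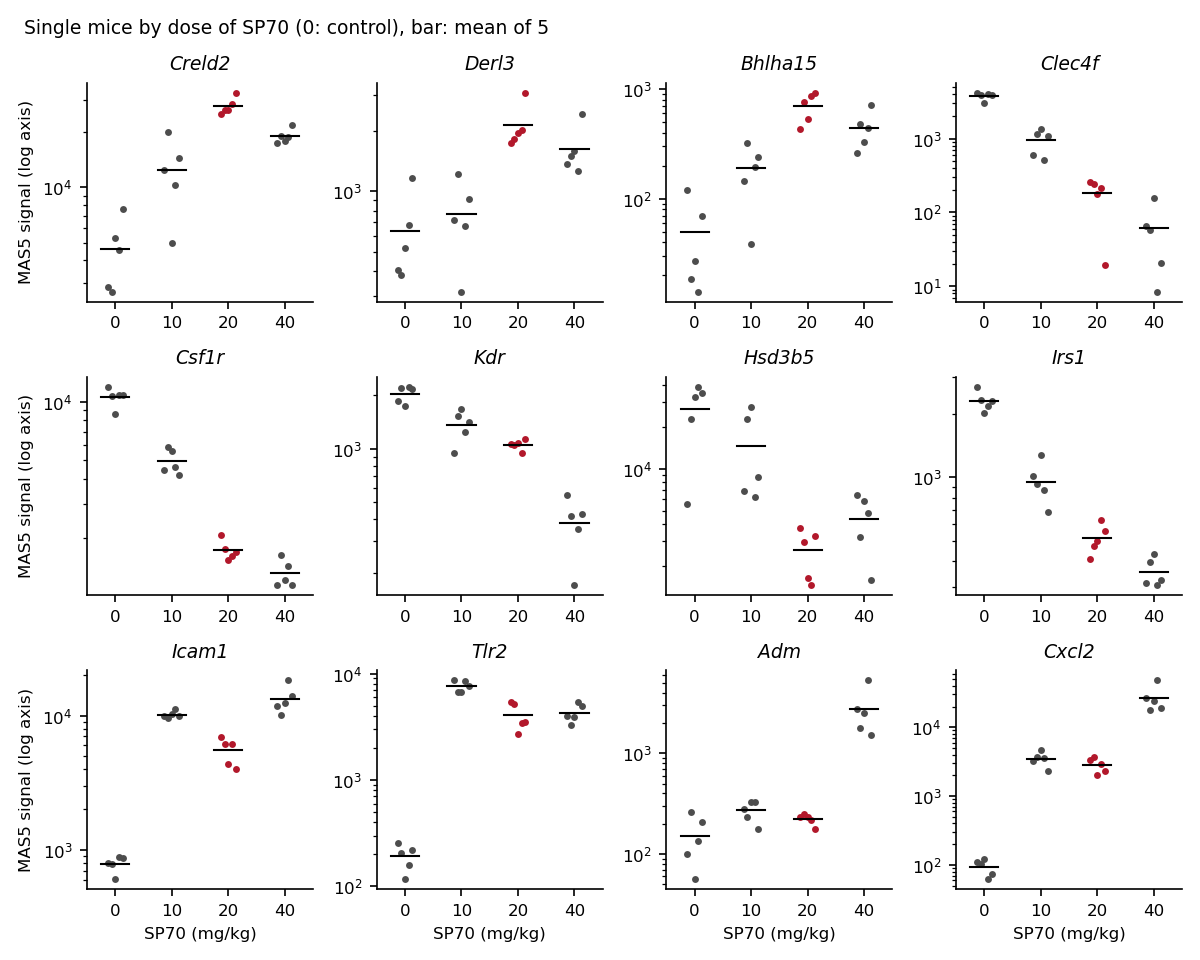
Signal (arbitrary units, log axis) of 12 genes in each mouse by SP70 dose, 0 (control), 10, 20 and 40 mg/kg, with 20 mg/kg in red; points are mice and bars are group means. Creld2 and Derl3 stand higher at 20 than at 10 mg/kg, Csf1r and Clec4f are lower at 20 than at 10 mg/kg, Kdr is lower at 40 mg/kg, Adm and Cxcl2 are higher at 40 mg/kg, and Icam1 at 20 mg/kg lies under both neighbours.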

How the data were processed

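Gene expression in 35 mouse livers was measured on 3′ expression arrays, 1 array for each mouse, after labelling of total RNA with biotin per the labels' protocols. The deposited values are MAS5 signal intensities on a linear scale, per the submitters' processing notes; the version, the scaling target and detection calls are not given in the sources used here. Of 45101 probe sets, 64 were controls, 34945 carried 1 gene, 932 several and 9160 none in the platform annotation; 34741 of the 34945 matched RefSeq and 0 symbols changed.

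Signals were taken to log2 after adding 12.5, the 10th percentile. Probe sets above 165 on at least 5 of the 35 arrays were kept, and the one with the highest mean stood for its gene, leaving 12678 genes; a gene can pass through the group in which it is high. limma 3.58.1 in R 4.3.3 fitted 7 group means over all arrays, with a trend of variance on signal, and p-values were two-sided with Benjamini-Hochberg adjustment over all genes at 0.05. Folds are ratios of geometric mean signals; values below 165 were set to it, and the fold is then given as at least. In data simulated for the comparison with control over 12678 genes, log2 differences of 0.5, 1, 2 and 3 were recovered in 32%, 78%, 96% and 100% of 50 genes each, with 7 false calls. Only those genes were changed in the simulation, far fewer than the 5020 called in the data. The adjustment acts differently there, so these rates need not hold for the comparison itself.

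The members, the 44 gene lists (1306 genes, 1145 tested) and the tests were chosen with earlier results of these data known. Genes named came from 3 rules. The first took the 12 highest and 12 lowest past the threshold whose groups did not overlap and whose higher group lay wholly above the filter. The second took up to 4 members of each list by smallest adjusted p and up to 2 past the threshold against its majority, and the third the 5 highest and 5 lowest against 10 and 40 mg/kg by the first rule's conditions. Other list members were named where their role was needed to follow a list. The number of arrays limits the precision. Consensus motifs known from textbooks were searched in RefSeq promoter windows with Python 3.11.15, pandas 2.3.3 and numpy 2.4.6; figures were drawn with matplotlib 3.10.9. The alternatives were other pseudocounts, filters, scalings, probe set rules, variance models and sample sets, a replicate block, and leaving out each mouse.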

Additional observations from a re-analysis of the deposited data

Results flagged for a closer look

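In groups of 5 mice, a mouse is listed here where its distance to the nearest other mouse, on the log2 scale, took up more of the whole range of its group than Dixon's critical value at 95% allows. Chance alone gives about 1 in 20 groups by this measure, and the genes described above were each looked at in both groups. Low mice among those given SP70 20 mg/kg were found for Hal (3760 in the first mouse), Tnf (85.5 in the third), Bag3 (3677 in the third), Cdkn1a (6003 in the second), Dusp5 (169 in the second) and Il18bp (643 in the first). The fifth mouse was lowest for the Kupffer cell genes C1qc, at 16.5, and Clec4f, at 19.5, and highest for Derl3, at 3087. Slc2a1 was highest in the third mouse, at 2290, and Fads1 in the second, at 16561.

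Among controls, the first mouse stood lowest for the growth hormone target Hsd3b5 (5540), for Igf1 (37582), for Atf6 (2069) and for the respiratory chain subunit Sdha (23654). Clec4f was lowest in the third control, at 3055. F13a1 was highest in the second control, at 151, which is under the filter level of 165, and Il1r1 in the fifth, at 2636.

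Probe sets with no single gene entered no comparison above. Of 3588 kept probe sets with no gene in the annotation, 832 passed the threshold in the same model, 548 higher and 284 lower in SP70 20 mg/kg mice than in controls. Of 616 kept probe sets with several genes, 209 passed, 113 higher and 96 lower.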

How the results depend on the processing

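Over all alternatives that left every mouse in, the 5020 genes past the threshold against control stayed within 1.5 times, in both directions. Leaving out 1 mouse gave 4647 to 4925 genes, 2145 to 2386 higher and 2392 to 2639 lower. Of 1161 genes listed or named, 639 passed, and 496 of them kept the call and its sign in every alternative that tested them; Calr was lost after median centring, Trib3 without the fourth control, and Ppp1r15a under 6 settings. The direction turned for 10 of the 1161 genes when the mean of all probe sets stood for a gene. The log2 difference was then 0.025 for Hspa4l (-0.46 as reported), 0.040 for Arpc2 (-0.23), 0.16 for Il1rap (-0.21), -0.10 for Txn1 (0.15), 0.55 for Bcl2l2 (-0.11), 0.45 for Rora (-0.06), 0.066 for Slco1b2 (-0.55), 0.0058 for Fads1 (-0.43), 0.40 for Apob (-0.13) and 0.0028 for Sdha (-0.25); that rule also ended 18 of the 219 calls among genes chosen by the naming rules. Against 10 mg/kg, the 631 higher genes became 947 after quantile normalization and 1015 after trimmed mean scaling; leaving out 1 mouse gave 1511 to 2208 genes, 437 to 678 higher and 1074 to 1702 lower. Against 40 mg/kg, the 1453 genes became 849 after median centring. Higher genes there, 1100, became 469 after quantile normalization, 502 after median centring and 441 after trimmed mean scaling, and lower genes, 353, became 595 after quantile normalization and 538 after trimmed mean scaling. Leaving out 1 mouse gave 912 to 1666 genes, 618 to 1338 higher and 265 to 328 lower, with 960 (663 higher) without the third mouse at 20 mg/kg and 912 (618 higher) without the third at 40 mg/kg. The cause of these shifts was not tested.

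The labels number the mice 1 to 5 in every group without saying that a number is shared. Deviations of same-numbered mice from their group means had a mean correlation of -0.00519 over 5 pairs (-0.0671 to 0.0488), against 0.0013 for other numbers, and 2 of 5 treated mice correlated best with their own number. Single lists can differ from this average over all genes. The fifth mouse was highest for 24 of 36 ER folding genes in treated mice and 23 in controls. The second was highest for 27 and 32 of 38 genes of cholesterol and fatty acid synthesis. Other lists shared no number: for 35 interferon genes the first treated mouse (14) and the fourth control (17) were most often highest. A shared order or batch by number was not tested. With the replicate number as a block, 2371 genes were higher and 2631 lower against control, 627 and 1490 against 10 mg/kg, and 1055 and 349 against 40 mg/kg; no count moved by over 1.5 times. Signals near background limit folds of dim genes, and detection and saturation calls are not given in the sources used here.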

Other observations

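Genes of the cytoskeleton were more often higher than lower, 14 (50%) against 2 (7.14%) of 28 tested, where 18.7% and 20.9% of all genes were. After median centring they were 10 against 2. Tpm4, a tropomyosin of non-muscle cells, had 4408, 4739, 4673, 4496 and 5022 in SP70 20 mg/kg mice, against 1397, 1477, 1400, 1664 and 1604 in controls, 3.1-fold higher (log2 1.62 ± 0.14; adjusted p = 4.38e-11). Myh9, the heavy chain of non-muscle myosin, was 1.99-fold higher (adjusted p = 2.62e-09), and Stmn1, which takes microtubules apart, was 2.12-fold lower (adjusted p = 0.00132). Among genes of apoptosis and necroptosis, 11 of 31 rose (35.5%) and 2 fell (6.45%). Bid, a link from death receptors to mitochondria, had 2177, 1992, 2107, 2089 and 2044 in SP70 20 mg/kg mice, against 411, 446, 489, 708 and 567 in controls, 4.05-fold higher (adjusted p = 9.19e-16). Mlkl, the executor of necroptosis, was 2.64-fold higher (adjusted p = 2.55e-09), while the death activator Bmf was at least 2.81-fold lower (adjusted p = 2.91e-06). Of 21 p53 targets and arrest genes 9 rose (42.9%) and 2 fell (9.52%). Of 31 cell cycle genes 4 rose and 4 fell (12.9% each), under the 18.7% and 20.9% of all genes.

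Of 31 coagulation genes, 6 rose (19.4%) and 9 fell (29%), against 18.7% and 20.9% of all genes. Plaur, the urokinase receptor, was 2.24-fold higher, at 662 ± 79.3 in SP70 20 mg/kg mice and 299 ± 61.5 in controls (SD, n = 5 each; adjusted p = 8.65e-08). Klkb1, plasma prekallikrein, was 1.89-fold lower (adjusted p = 4.53e-09). Complement without C1q counted 7 higher and 7 lower of 26 as reported (26.9% each), and 3 higher after median centring. Cfb, factor B of the alternative pathway, was 1.77-fold higher (adjusted p = 5.54e-10). Sox9, a bile duct and progenitor transcription factor, had 1199, 1189, 557, 913 and 1235 in SP70 20 mg/kg mice, against 150, 219, 81.9, 119 and 269 in controls, at least 5.08-fold higher (adjusted p = 3.07e-07).

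Within each group, 1 mouse was often the highest for the genes of a list. For the 36 ER folding genes, the fifth SP70 20 mg/kg mouse was the highest of its group for 24 and the first the lowest for 21; the fifth control was the highest of its group for 23 and the first control the lowest for 19. For 38 genes of cholesterol and fatty acid synthesis, the second SP70 20 mg/kg mouse was the highest for 27, and among controls the second was the highest for 32 and the fifth the lowest for 30. Over all 12678 genes, the fifth SP70 20 mg/kg mouse was the highest of its group for 17.4% and the second for 14.2%, and the fifth control for 23.2% and the second control for 21.9%. Of 5735 genes with several kept probe sets, 114 had probe sets past the threshold in both directions.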
